A study of Homo sapiens with 4 samples.

Results

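The genes described here encode MYC and the transcription factors JUN, JUNB, JUND, FOSL1, FOSL2, ATF3 and ATF4. They were taken as a named list of 8 genes, of 19009 protein-coding genes with an annotated 3′ UTR, and a peak was theirs when its entry carried their NCBI Gene ID. Of 63507 PABPC4 peak positions 21 belonged to them, and of 9107 HNRNPC peak positions 0 did.

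AP-1 is a dimer of basic leucine zipper proteins. JUN, JUNB and JUND pair with each other or with FOS proteins such as FOSL1 (FRA-1) and FOSL2 (FRA-2), and the related factors ATF3 and ATF4 act in stress responses, ATF4 being made when general translation is lowered. MYC pairs with MAX and drives growth genes. Many of these mRNAs are short-lived, and the pentamer AUUUA in a 3′ UTR is the core of the AU-rich elements through which decay factors can act on such mRNAs.

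The material was MDA-MB-231, an established human line of triple receptor negative breast cancer, grown without further treatment and exposed to 254 nm ultraviolet light at 400 mJ/cm2 to fix proteins to the RNA they touch. Endogenous HNRNPC, a mostly nuclear protein that binds runs of U in pre-mRNA, was immunoprecipitated in 2 samples by cross-linking and immunoprecipitation (CLIP). PABPC4, a protein that binds poly(A) tails, was immunoprecipitated in 2 further samples by PAPERCLIP, which primes at A tails and so collects fragments that end where an mRNA was cleaved and polyadenylated. The authors merged the libraries of a protein before calling peaks and deposited 1 list for each protein. Variation between replicates therefore could not be measured, and the intervals given are exact 95% binomial intervals that cover counting error only. No input or control antibody library was analysed here. A peak's height is the number of pooled unique tags at its summit. It was not scaled to depth, it depends on how much of the mRNA the cell holds as well as on binding, and no RNA level was analysed here. The median PABPC4 peak was 38 tags high and the median HNRNPC peak 11 tags. The label of the line was checked on marker genes. The mesenchymal genes VIM, CD44, AXL, CAV1 and ZEB1 had summed PABPC4 heights of 1237 to 11239 tags, while ESR1 had 11 tags, PGR had 0 peaks, and CDH1, EPCAM and GATA3 had 82, 145 and 187 tags. In 3′ UTR peaks alone ZEB1 had 73 tags, fewer than EPCAM with 145 and GATA3 with 108, and the other 4 mesenchymal genes had 665 to 11023.

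The sequences below show peak ends with and without a poly(A) signal, chosen from tall and low PABPC4 peaks alike. Each is the RNA strand, 5′ to 3′, 30 nt long, read from GRCh38 (hg38). In the first set the window lies in the 3′ end of the peak and the capitals mark a poly(A) signal, AAUAAA or AUUAAA, or the hexamer AGUAAA, which differs from AAUAAA in 1 base.
FOSL1, peak of 1515 tags, chr11:65892212-65892241, minus strand: AAUAAAaggcuugaagcuguggccugagug
FOSL2, peak of 510 tags, chr2:28417280-28417309, plus strand: gcauuuuguagAAUAAAaugaauuaagauu
FOSL2, peak of 25 tags, chr2:28412941-28412970, plus strand: ggucugaauAUUAAAgcucuucauuucugg
ATF4, peak of 225 tags, chr22:39522653-39522682, plus strand: guguguuccAAUAAAuuauuuuguagggaa
JUN, peak of 43 tags, chr1:58780790-58780819, minus strand: uugucacAAUAAAuguauucaaauaccaau
JUND, peak of 232 tags, chr19:18279761-18279790, minus strand: uuucuguuuucAGUAAAgucucguuacgcc
JUNB, peak of 100 tags, chr19:12793283-12793312, plus strand: auuuaAGUAAAaaaaaaauugguucuuuau

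The second set shows the genome just after the end of 3 of the peaks that were followed by an A-rich stretch, which is marked in capitals. Such a stretch held an uninterrupted run of at least 6 A, or 7 A among 10 bases, in the 50 nt downstream. Oligo(dT) can also prime on such stretches inside a transcript, and whether it did so here was not tested.
FOSL1, intron peak of 415 tags, chr11:65898028-65898057, minus strand: AAAAAAAAAAAAcagaaaagaaaaaaaaaa
JUN, 3′ UTR peak of 27 tags, chr1:58782022-58782051, minus strand: ggcaacgaagAAAAAAAAuaacacagagag
JUN, 3′ UTR peak of 71 tags, chr1:58781320-58781349, minus strand: UAAGAAAAUAcaauaaacuauuggaaagua

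PABPC4 was found on the transcripts of all 8 genes, and in the 3′ UTR of 7 of them (MYC, JUN, JUNB, JUND, FOSL1, FOSL2 and ATF4). Among all protein-coding genes 60.1% had a PABPC4 peak and 49.0% had one in a 3′ UTR. Of the 21 peaks 14 lay in 3′ UTRs, or 66.7% (43.0 to 85.4%), against 29.7% of all PABPC4 peaks, and the other 7 lay in introns. FOSL1 held 6 of these intron peaks and ATF3 the seventh, which lay in no intron of its representative transcript. Without FOSL1, the 3′ UTR share was 92.3%, and peaks of 1 gene share their transcript and are not independent. JUN, JUNB and JUND, with 3, 1 and 2 peaks, have no intron in their representative transcript, so these peaks could not lie in an intron of it. The shares of the group and of all peaks were not matched for intron content. The 21 peaks were 31 to 171 nt wide and 25 to 1515 tags high, with a median of 86 tags, and each had an authors' p-value of 0.001 or less.

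**Figure D1:**
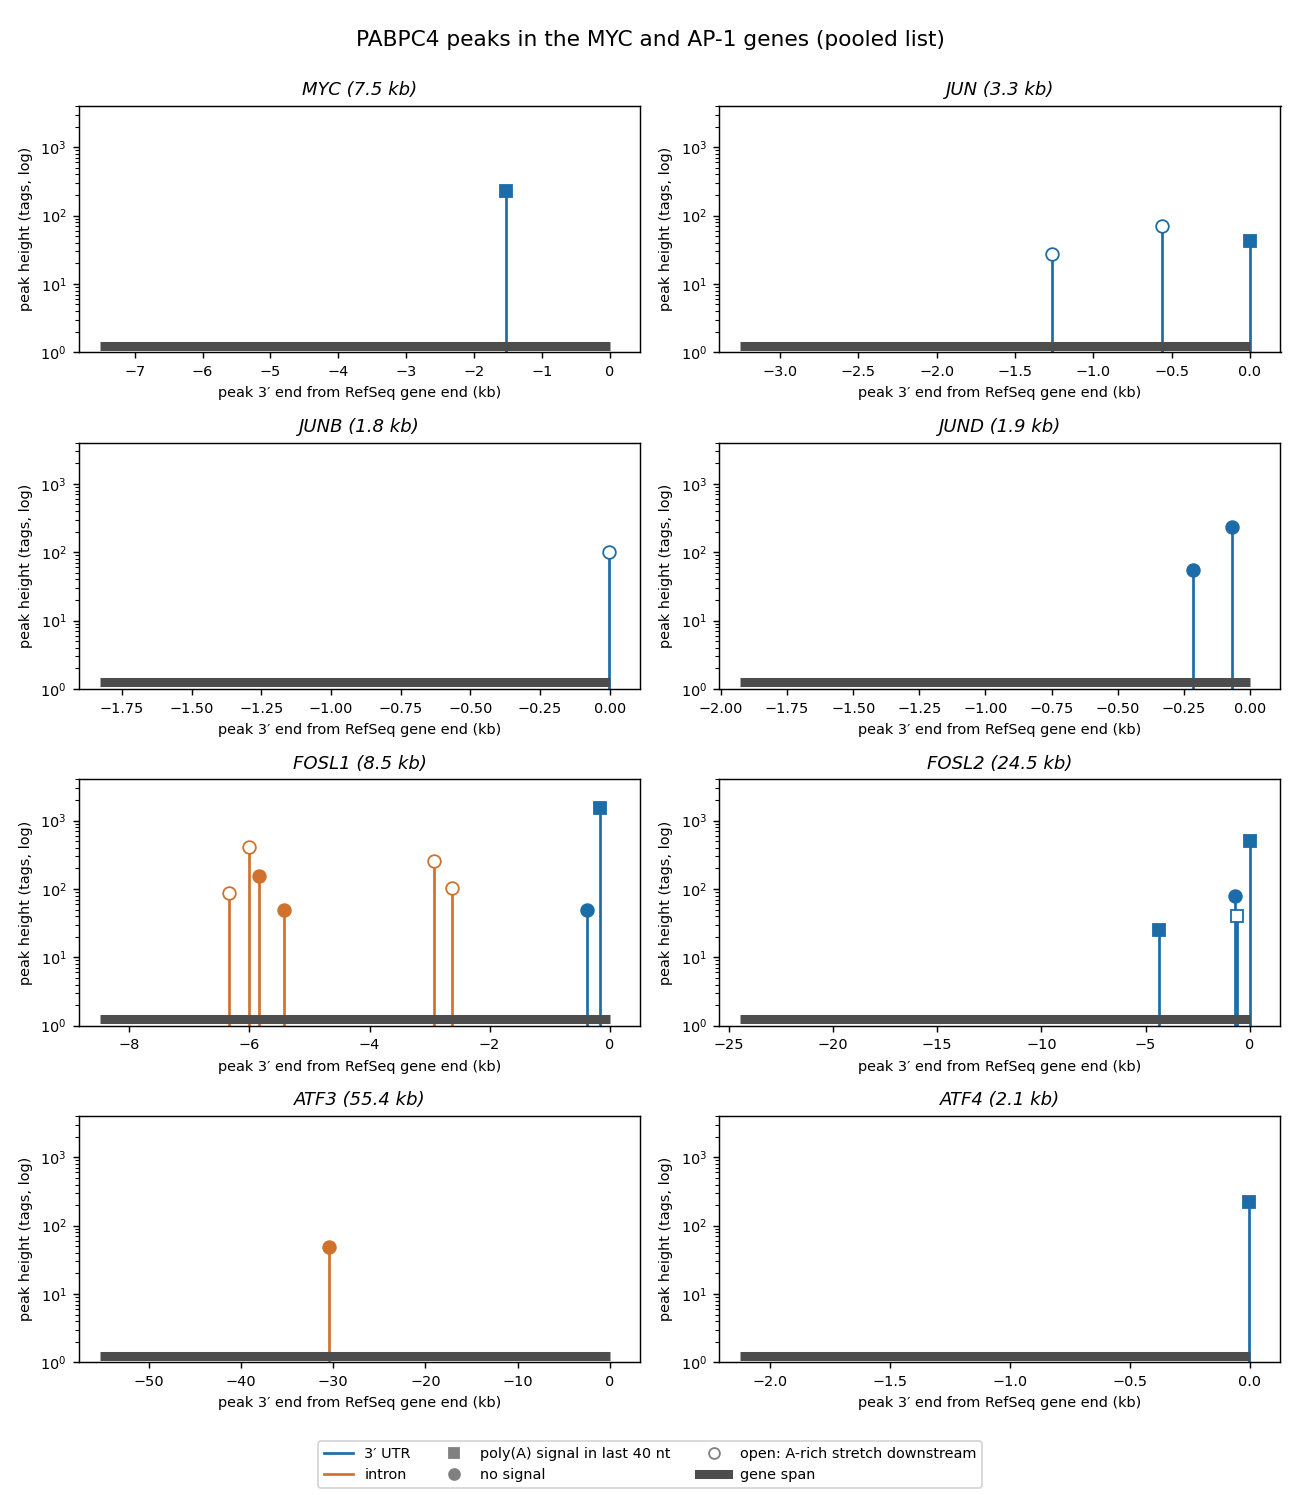
PABPC4 peaks of the 8 genes, with the distance of the peak's 3′ end from the RefSeq gene end in kb on the horizontal axis and the peak height in pooled tags on a logarithmic vertical axis. Blue marks 3′ UTR peaks, orange intron peaks, squares peaks with AAUAAA or AUUAAA in their last 40 nt, open symbols peaks with an A-rich stretch downstream, and the grey bar the gene. The tallest peak lies at the far right for JUNB, FOSL2 and ATF4, 1521 nt short of the gene end for MYC, and in an intron for ATF3.

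Summed over its peaks, the PABPC4 height ran from 49 tags for ATF3 to 2632 tags for FOSL1. Between them stood JUNB with 100 tags, JUN with 141, ATF4 with 225, MYC with 229, JUND with 287 and FOSL2 with 653. These sums include intron peaks, which held 1067 of the FOSL1 tags and all 49 of ATF3, and are not divided by transcript length. FOSL1 alone held 61.0% of the 4316 tags and stood 4.03 times above FOSL2, its nearest neighbour. In 3′ UTR peaks alone it held 48.9% of 3200 tags and stood 2.40 times above FOSL2. MYC and ATF4 did not differ beyond counting error, since MYC held 50.4% of their joint tags (45.7 to 55.1%). JUND and MYC differed narrowly by the same measure, at 55.6% (51.2 to 59.96%), and so did JUN and JUNB, at 58.5% (52.0 to 64.8%). Each other step in the order was wider than counting error. Among the 11429 genes with a PABPC4 peak FOSL1 ranked 98th, above 99.1% of them, and FOSL2 was above 87.4%. The others were above 20.1% (ATF3), 34.8% (JUNB), 44.2% (JUN), 58.1% (ATF4), 58.6% (MYC) and 65.6% (JUND).

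**Figure D2:**
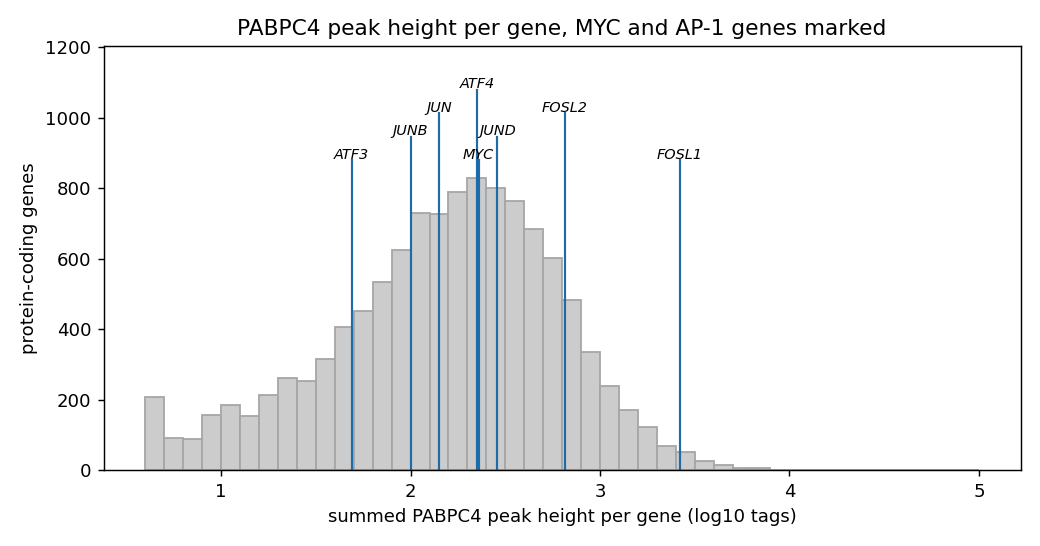
Number of protein-coding genes by summed PABPC4 peak height, in log10 tags, for the 11429 genes with a peak. Vertical lines mark the 8 genes. The lines of ATF3, JUNB and JUN stand below the median of 173 tags and the other 5 above it, with FOSL1 in the upper tail.

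Counting 3′ UTR peaks alone, all 7 genes that had one stood above the median of the 9322 genes with such a peak, which was 97 tags. They ranged from JUNB, above 50.9% of these genes, to FOSL1, above 98.8%, with JUN above 62.8%, ATF4 above 76.8%, MYC above 77.3%, JUND above 82.9% and FOSL2 above 95.1%. For JUNB and JUN this rested on peaks before A-rich stretches. The single JUNB peak of 100 tags was one, and so were the JUN peaks of 71 and 27 tags. Without such peaks JUNB had none left and JUN kept 43 tags. Summed over all remaining peaks, JUN then stood above 25.6% of genes.

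In the JUN family, whose members are the obligatory partners of FOS proteins in AP-1, the genes differed in how many PABPC4 peaks they had. Whether each peak marks a 3′ end was not tested. JUNB had a single peak of 100 tags at chr19:12793281-12793312, which ended 3 nt before the annotated end of the gene. It held AGUAAA but neither common signal, and A-rich stretches lay both within its last 20 nt and after it. JUND had its tallest peak, 232 tags, at chr19:18279761-18279904, ending 67 nt before the annotated end and holding AGUAAA, and a smaller one of 55 tags at chr19:18279909-18279964 with no such hexamer and a run of A close to its end. The taller peak held 80.8% of the JUND tags (75.8 to 85.2%). JUN had 3 peaks in its single 3′ UTR exon. The one at its annotated end, chr1:58780790-58780841, held AAUAAA and was 43 tags high, or 30.5% of the tags (23.0 to 38.8%). The tallest, at chr1:58781350-58781520, had 71 tags, or 50.4% (41.8 to 58.9%), and ended 559 nt short of the annotated end. It had no signal in its last 40 nt, while an AAUAAA began 12 nt after its end and an A-rich stretch lay directly behind it. The third, 27 tags at chr1:58782052-58782082, reached across the stop codon into the start of the 3′ UTR, held no signal and was followed by 8 A in a row. Leaving out the peaks before A-rich stretches, JUN kept the peak at its end and JUNB kept none. The number of the 8 genes with a 3′ UTR peak then fell from 7 to 6.

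The FOS-related genes had the tallest 3′ UTR peaks of the group. FOSL1 had a peak of 1515 tags at chr11:65892202-65892371, 170 nt wide, which held 96.8% of its 3′ UTR tags (95.8 to 97.6%). It ended 153 nt before the nearest annotated end, with AAUAAA starting 39 nt before the last base of the peak. A second 3′ UTR peak of 50 tags lay at chr11:65892431-65892477 and had no signal and ended 43 nt past another annotated end. FOSL2 had 4 peaks in its 4869 nt of 3′ UTR. The peak at the annotated end, chr2:28417247-28417309, was 510 tags high and held 78.1% of the tags (74.7 to 81.2%), with AAUAAA starting at -18 nt. Smaller peaks lay before it, with 78 tags at chr2:28416534-28416582, 40 tags at chr2:28416647-28416689 and 25 tags at chr2:28412938-28412970. The peak of 25 tags, which held 3.83% of the tags (2.49 to 5.60%), lay 4342 nt before the annotated end and had AUUAAA at -20 nt. The FOSL2 peak of 40 tags also held AUUAAA, at -18 nt, with an A-rich stretch after it, and the one of 78 tags held no signal.

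FOSL1 was also the gene with most of the intron signal. Its 6 intron peaks summed to 1067 tags against 1565 tags in its 3′ UTR, so that 59.5% of its PABPC4 height lay in the 3′ UTR. In intron 1 they were 86, 415, 155 and 50 tags high, and in intron 2 they were 258 and 103 tags high. An A-rich stretch followed 4 of the 6, against 71.2% of all PABPC4 intron peaks, and the peak of 155 tags, which was not among these, ended in such a stretch itself. A poly(A) signal was present in 0 of the 7 intron peaks of the group. The last 45 nt were searched on the sense strand for the hexamer CCAGCC and for the overlapping UCCAGC, for ACUCCA, and for GCCUGG with the overlapping CCUGGG. At least 1 of them was found in 3 of the 6 FOSL1 peaks and in 32.5% of all PABPC4 intron peaks. The authors' expected height for FOSL1 was 15.89 tags, the highest of the group, and its peaks of 50 tags stood 3.15 times above it, the lowest such ratio of the 21 peaks.

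ATF4 and ATF3, the stress-induced members, were unlike each other. ATF4 had a single peak of 225 tags at chr22:39522573-39522682. It ended 1 nt before the annotated end of the gene, held AAUAAA at -20 nt and had no A-rich stretch behind it. ATF3 had 0 peaks in its 1670 nt of annotated 3′ UTR. Its single peak, 49 tags at chr1:212590224-212590286, lay 28980 nt before the nearest annotated 3′ end, inside the gene but in no intron of the representative transcript, and had neither a signal nor an A-rich stretch behind it. The last 30 nt of that peak are given because no signal was found in them.
ATF3, peak of 49 tags, chr1:212590257-212590286, plus strand: uuuaaguuaaugggaaaaauuugagacaca

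Over the group, 7 of the 14 3′ UTR peaks, an exact interval of 23.0 to 77.0%, held AAUAAA or AUUAAA in their last 40 nt, against 48.6% of all PABPC4 3′ UTR peaks. Counting AGUAAA too, which was chosen after seeing the JUNB and JUND peaks, the shares were 64.3% and 50.8%. An A-rich stretch followed 4 of the 14, or 28.6% (8.39 to 58.1%), against 32.0%. Of the 14, 6 ended within 50 nt of an annotated end of their gene, or 42.9% (17.7 to 71.1%), against 47.2%. The tallest 3′ UTR peak was at an annotated end in 4 of the 7 genes (MYC, JUNB, FOSL2 and ATF4), an interval of 18.4 to 90.1%, against 63.9% of genes. The same number, 4 of the 7 genes (JUN, JUND, FOSL1 and FOSL2), had more than 1 such peak, against 50.9%. Each of these shares of all peaks or genes lay within the counting interval of the group.

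HNRNPC peaks were found in 0 of the 8 genes, neither by gene ID nor by position on either strand of their spans, whereas 19.2% of protein-coding genes had a peak and 1.93% had one in a 3′ UTR. The list holds only peaks that passed the authors' threshold, so the count says nothing of tags below it. HNRNPC peaks were more frequent in longer genes. Among genes with a PABPC4 peak they were present in 8.74% of those spanning under 10 kb, in 30.7% of those of 10 to 100 kb and in 47.4% of longer ones. Of the 8 genes 6 span under 10 kb, from 1830 nt for JUNB to 8497 nt for FOSL1, and JUN, JUNB and JUND have no intron in their representative transcript. FOSL2 and ATF3 span 24460 and 55371 nt, with 17747 and 10075 nt of intron in the representative transcript. The count of 0 stands against a background of 8.74% for 6 of the genes and 30.7% for FOSL2 and ATF3, and the counting interval of 0 of 8 reaches 36.9%.

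The group is known for AU-rich 3′ UTRs, and this was checked on the annotated 3′ UTRs of the genes. AUUUA occurred 25 times in the 8 genes, on the sense strand with overlaps allowed, and in 7 of the 8, against 72.3% of 18774 genes. FOSL2 had 9, MYC had 6, JUN and ATF3 had 3 each, JUNB had 2, JUND and FOSL1 had 1 each, and ATF4 had 0. Per kb of 3′ UTR the density was highest for JUNB (4, above 85.9% of genes), followed by MYC (2.92, above 72.8%) and JUN (2.34, above 63.1%). It was 1.85 for FOSL2, 1.80 for ATF3, 1.34 for JUND, 0.806 for FOSL1 and 0 for ATF4, and the median gene had 1.61. In content of A and U, MYC was the single gene above the median of 57.2%, with 60.7%, and JUN followed with 57.0%. JUND was lowest, with 38.4%, and 4.77% of genes lay below it. The median gene was exceeded by 5 of the 8 in AUUUA density, by 4 in AUUUA count and by 1 in base content, and the median percentile of the group in AUUUA density was 53.9%. The group as a whole therefore did not stand out as AU-rich by these measures. The longer motif UUAUUUAUU was present in FOSL2 alone, against 9.79% of genes, and lay 936 nt before the end of its peak of 510 tags. It is marked in capitals.
FOSL2, chr2:28416355-28416384, plus strand: auuuauuuuaUUAUUUAUUuuaaauguuua

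**Figure D3:**
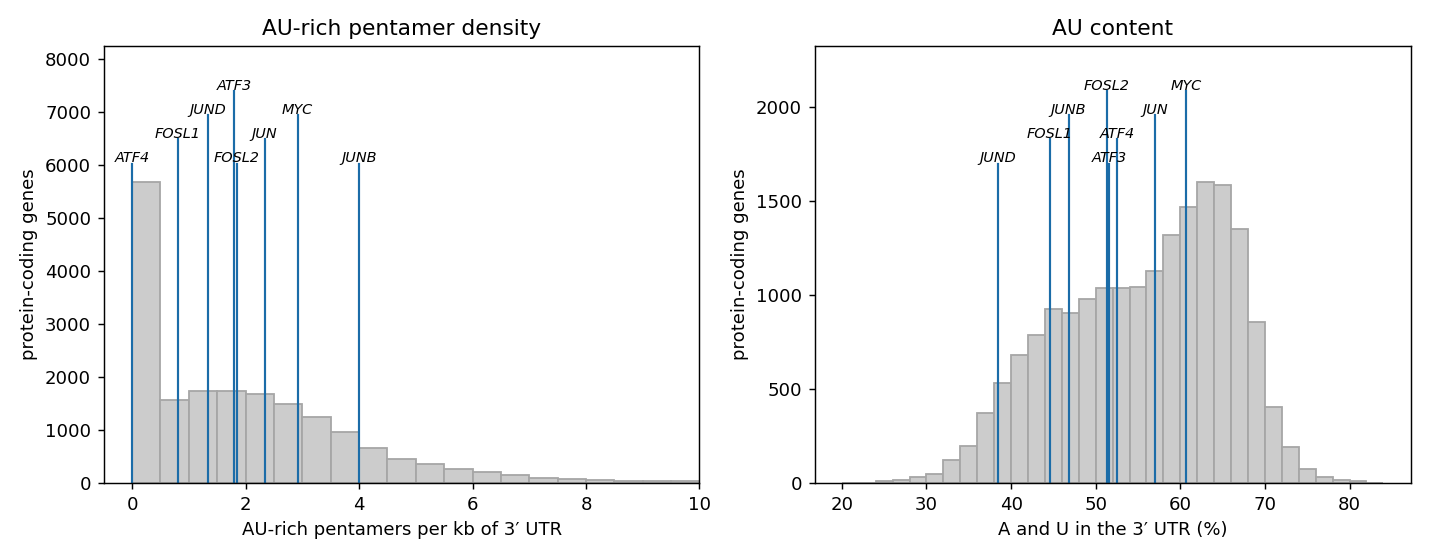
AUUUA pentamers per kb of annotated 3′ UTR (left) and percent of A and U (right), as numbers of genes among 18774, with the 8 genes marked by vertical lines. The left axis ends at 10 per kb. In the left panel JUNB stands highest at 4 and ATF4 at 0, and in the right panel MYC alone lies above the median of 57.2%.

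The peaks were then set against the AUUUA copies, since an mRNA that ends early lacks the copies behind its end. Whether mRNAs end at each of these peaks was not tested. In FOSL2 the 25-tag peak ended before all 9 copies, the 78-tag and 40-tag peaks came after 7 and the 510-tag peak came after all 9. In JUN the 3 copies lay behind the 2 peaks next to A-rich stretches and before the peak of 43 tags at the annotated end. The MYC peak, the single one of the gene, was 229 tags high and 127 times above the authors' expected height of 1.80 tags. The same ratio was larger, at 455, for the FOSL2 peak of 510 tags. It was 1225 for the ATF3 peak of 49 tags, where the expected height was 0.04. The MYC peak ended 4 nt before an annotated end of the gene and 1521 nt short of the RefSeq gene end. Of the 6 AUUUA copies, 4 preceded it and 2 followed. It held AAUAAA, starting 36 nt before the last base of the peak, and was followed by no A-rich stretch. In JUNB both copies, in JUND its 1 copy and in FOSL1 its 1 copy lay before the tallest peak's end, and in JUNB a copy directly adjoined the AGUAAA printed above.

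Related genes were examined in 3 lists. Of 22 AP-1 and other basic leucine zipper partners 19 had a PABPC4 3′ UTR peak and 7 had an HNRNPC peak, 1 each. The highest summed PABPC4 heights were those of ATF7 (1116 tags, 75 of them in the 3′ UTR), NFE2L2 (742 tags, 122 in the 3′ UTR) and ATF6 (711 tags, 509 in the 3′ UTR). FOS and FOSB, the immediate-early partners of JUN, had 0 peaks in either list, while FOSL1 and FOSL2 had 8 and 4 PABPC4 peaks. Of 12 genes of the MYC network 8 had a PABPC4 3′ UTR peak, and MXD3 alone had an HNRNPC peak, of 8 tags. MGA, MLXIP and MAX, the partner of MYC, had 838, 558 and 515 PABPC4 tags, with 83, 290 and 223 of them in the 3′ UTR. MYCN and MYCL had 0. Of 18 other immediate-early genes 12 had a PABPC4 3′ UTR peak. By summed height over all peaks they were led by CCN1 with 1207 tags, KLF6 with 697 (659 in the 3′ UTR) and KLF10 with 340. HES1 and IER2 had HNRNPC peaks of 7 and 12 tags. Of these 52 genes 10 had an HNRNPC peak, or 19.2%, the same as the 19.2% of all protein-coding genes, and 0 had one in the 3′ UTR, against 1.93%. A PABPC4 3′ UTR peak was present in 39 of the 52, against 49.0% of all protein-coding genes. By summed height in both lists, on the log2(tags + 1) scale, the genes nearest to the median of the 8 genes were ABCC10, ACADVL and ADAM15, each with 227 PABPC4 tags and 0 HNRNPC tags, as the first of several ties in alphabetical order over 2 lists.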

How the data were processed

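Per the study's methods, HNRNPC reads were collapsed by molecular identifiers, trimmed with cutadapt, aligned to hg38 with BWA 0.7.17 and called into peaks with the CLIP Tool Kit by valley seeking. The submitters' processing notes name UMI-tools, cutadapt and BWA for all 4 samples, and other steps for PABPC4 were not given in the sources used here. The deposited signal of a peak is its height in pooled unique tags, which the authors did not scale. The name of the HNRNPC list says HITS-CLIP and the labels irCLIP, and which applies was not settled. The reads per library were not analysed here.

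Repeated entries of a position were merged under the smallest p-value, and the strand-specific position of the peak centre gave its feature, in the order 3′ UTR, CDS, 5′ UTR, non-coding exon and intron, in GENCODE 44 on GRCh38. Intron here means any part of a gene's span outside annotated exons. Annotated 3′ ends were those of protein-coding transcripts with a complete 3′ end. Peaks counted as followed by an A-rich stretch where the next 50 nt held 7 A among 10 bases or an uninterrupted run of 6. All 8 gene IDs matched in RefSeq. AUUUA was counted in 3′ UTRs of at least 50 nt, over all protein-coding transcripts of a gene. Shares were given with exact intervals (scipy 1.17.1), and no test was made. The feature assignment, the A-rich search and the motif count were tested on simulated data, and the other steps were not. All 8 genes were named, with at most 3 genes a list by PABPC4 height and 3 by HNRNPC peaks, and the genes of 0 or few peaks named beside them were chosen after seeing the values. The genes and lists were chosen with earlier results of these data known.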

Additional observations from a re-analysis of the deposited data

How the results depend on the processing

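No paired analysis was possible because each deposited list merges its 2 samples, which also prevented omission of single replicates. Of 38 recalculations 30 kept the value, within its counting interval for shares and within 1.5 times for counts. Some of these could not have moved it. Keeping only stricter or taller peaks cannot raise a count of 0 HNRNPC peaks. All 21 PABPC4 peaks had p-values of at most 0.001, so that limit could not change counts or shares over them. The count of HNRNPC peaks also stayed 0 by position and with every entry counted. Its planned overlap with PABPC4 and its U runs therefore gave no value. The 3′ UTR share of the PABPC4 peaks became 92.3% without FOSL1, which was added once the values were known, as was the count with AGUAAA. The median percentile of summed PABPC4 height, 58.3%, became 87.0% with the tallest peak, 77.3% with 3′ UTR peaks alone, 58.1% at p-values of at most 0.001 and 75.4% without peaks before an A-rich stretch. These medians do not all cover the same genes. The one for 3′ UTR peaks leaves out ATF3, the lowest gene in the main setting at 20.1%. The one without peaks before an A-rich stretch leaves out JUNB, which stood at 34.8%. In that setting JUN fell from 44.2% to 25.6%, FOSL1 stayed at 99.1%, and MYC, JUND, FOSL2, ATF3 and ATF4 rose. The median share of a gene's height in its tallest peak, 90.4%, became 96.8% in 3′ UTR peaks alone, again without ATF3. The median percentile of AUUUA density, 53.9%, became 58.4% in representative transcripts and 0 for UUAUUUAUU, which 1 of the 8 genes held. The 14 peaks in 3′ UTRs limit each share given over them.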
